A study of Mus musculus with 12 samples.

Results

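The glucocorticoid-responsive genes described here are 8 genes, Fkbp5, Tsc22d3, Sgk1, Mt1, Mt2, Tat, Zbtb16 and Nr3c1, chosen by name as targets of the glucocorticoid receptor, metallothioneins and the receptor itself, out of 55487 genes in the count table. Each of 6 mice gave 1 liver and 1 brain RNA library, 12 libraries in 4 groups of 3. The KO mice A, C and F lack Mettl5, a methyltransferase of ribosomal RNA, and the mice B, D and E are labelled WT. The study built the KO allele by flanking exon 2 of Mettl5 with loxP sites in hybrid ES cells, backcrossed it to C57BL/6 and removed the exon with a CMV-driven Cre that acts throughout the body. WT is used here as the labels use it, although the study also calls its sequenced control mice heterozygous. It describes the sequenced KO and control mice as pairs elsewhere, but the membership of these pairs is not in the labels. The study's mice were of both sexes and of a range of ages, but the labels give neither sex nor age of a mouse, nor time of day, litter or library batch. No hormone or drug was given according to the labels, and no hormone level was analysed here.

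Glucocorticoids are steroid hormones of the adrenal cortex that follow the time of day and rise with fasting and stress. They bind the glucocorticoid receptor, which is held in the cytoplasm by heat shock protein chaperones, enters the nucleus with its ligand and binds DNA as a dimer. In liver the hormone is known for inducing enzymes of amino acid breakdown and glucose production, and in brain it acts on neurons and glia and feeds back on the pituitary axis. Metallothioneins bind zinc and copper, and their genes answer both to glucocorticoids and to free zinc, the latter through the metal response factor MTF1.

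All 8 genes were found in the table, and their positions are those of mm10. Nr3c1 (ENSMUSG00000024431.15), which encodes the receptor, spans 39410545 to 39519421 of chromosome 18 (minus strand). Fkbp5 (ENSMUSG00000024222.17), whose product is a chaperone partner that lowers the receptor's affinity for hormone, spans 28399094 to 28517527 of chromosome 17 (minus strand). Tsc22d3 (ENSMUSG00000031431.13) encodes the leucine zipper protein GILZ, an anti-inflammatory target of the receptor, and spans 140539528 to 140600659 of the X chromosome (minus strand). Sgk1 (ENSMUSG00000019970.15), a kinase that regulates ion channels and transporters, spans 21882184 to 21999903 of chromosome 10 (plus strand). Zbtb16 (ENSMUSG00000066687.5), a zinc finger transcription factor, spans 48654297 to 48836222 of chromosome 9 (minus strand).

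Tat (ENSMUSG00000001670.13), the enzyme that starts tyrosine breakdown, and the metallothionein genes share chromosome 8, all on the plus strand, with Mt2 (ENSMUSG00000031762.7) from 94172664 to 94173568, Mt1 (ENSMUSG00000031765.8) from 94179082 to 94180327 and Tat from 109990437 to 109999803. No exon of a member overlapped an exon of another gene on its own strand. On the opposite strand Gm45774 overlapped 432 bases of Mt2, and the counting used strand. No stretch of 100 bases, the full read length, of any member's transcripts occurred in the transcripts of another gene. Of stretches of 36 bases, the shortest reads kept, none of Mt1, Mt2 and Tat did, but 1.22% of those of Sgk1, 1.05% of Fkbp5, 0.824% of Tsc22d3, 0.192% of Zbtb16 and 0.078% of Nr3c1 did.

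Promoter windows of RefSeq (build GRCm38.p6), which run from 250 bases before to 50 bases after a start site, were held for 6 of the 8 members, 13 windows in all. They were searched on both strands for the core of the metal response element in the forms TGCACNC and TGCGCNC, for the receptor's 6-letter site AGAACA, for the palindrome core ACANNNTGT, and for the complete palindrome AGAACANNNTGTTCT, which contains both of the latter. The metallothionein windows are shown because Mt1 and Mt2 were high in the same livers, with every metal response core in capitals. They are Mt1 at chr8:94178839-94179138 and Mt2 at chr8:94172368-94172667, both on the plus strand.
Mt1: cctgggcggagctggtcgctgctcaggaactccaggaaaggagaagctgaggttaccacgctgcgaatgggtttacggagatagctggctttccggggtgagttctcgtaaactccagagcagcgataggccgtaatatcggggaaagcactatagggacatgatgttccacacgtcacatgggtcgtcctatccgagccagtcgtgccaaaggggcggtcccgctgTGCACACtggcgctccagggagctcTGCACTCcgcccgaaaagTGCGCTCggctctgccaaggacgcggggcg
Mt2: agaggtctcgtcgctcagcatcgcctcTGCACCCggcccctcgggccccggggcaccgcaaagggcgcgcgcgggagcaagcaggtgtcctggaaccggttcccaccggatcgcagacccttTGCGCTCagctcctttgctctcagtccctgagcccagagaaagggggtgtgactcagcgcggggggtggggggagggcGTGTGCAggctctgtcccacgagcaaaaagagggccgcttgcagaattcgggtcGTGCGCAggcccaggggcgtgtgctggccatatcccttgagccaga
Mt1 held 3 such cores, TGCACAC at position -23, TGCACTC at position 2 and TGCGCTC at position 20, counted from the start site at 0. Mt2 held 4, TGCACCC at position -223, TGCGCTC at position -128, and on the reverse strand GTGTGCA at position -50 and GTGCGCA at position 4. Of 32851 promoter windows of this length, 12.6% held the form TGCACNC, 15.4% held TGCGCNC, 1.97% held 3 or more cores of either form and 0.517% held 4 or more. The Mt1 window also held the palindrome core, as ACATGATGT at position -92, which 6.85% of windows did. AGAACA was present in 19.0% of all windows, in no metallothionein window, in 1 of the 3 windows of Tsc22d3 and in 3 of the 6 windows of Sgk1. The complete palindrome was present in 3 of the 32851 windows (0.00913%), and 1 of these belonged to Sgk1. It is shown in capitals with 20 bases on either side, on the plus strand at chr10:21993681-21993735.
Sgk1: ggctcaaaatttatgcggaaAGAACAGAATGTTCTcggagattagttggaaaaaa
The windows of Fkbp5 and Tat held none of these motifs, which says only that these letters are not in those 300 bases.

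Library totals ran from 14403309 to 21623180 counts, and levels are given as CPM, counts scaled to a common TMM-adjusted library size over all 12 libraries. Mettl5 was lower in every KO library than in every WT library of its tissue, at 13.2 ± 5.03 CPM (SD, n = 3) for WT and 4.94 ± 0.291 CPM (SD, n = 3) for KO liver, and at 5.25 ± 1.67 CPM (SD, n = 3) for WT and 2.91 ± 0.266 CPM (SD, n = 3) for KO brain. Its adjusted p was 0.383 in liver and 0.373 in brain (edgeR, Benjamini-Hochberg), so the difference ran with the labels without passing the threshold. Hepatocyte markers summed to between 87728 and 123430 CPM in the liver libraries and to between 12.1 and 31.5 CPM in the brain libraries, while neuron markers summed to between 2820 and 3405 CPM in brain. Mice E and F stood apart from the others in both tissues. Each of their libraries had at least 9446 Xist counts, against at most 19 elsewhere, and at most 336 Y-linked counts, against at least 2183 elsewhere. WT and KO each hold 1 of these mice. The KO brain libraries also differed from the WT brain libraries in markers of brain regions, with values given beside the brain results. The 3 libraries of a group come from 3 mice, and p-values of genotype within a tissue measure the spread between mice. The fits over all 12 libraries pooled the spread of both tissues. They took liver and brain of the same mouse as independent, except where mouse was a block.

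The level of each member in each tissue was read first. Per kilobase of exon, Tat was the most abundant member in WT liver, at 911 ± 73.1 CPM per kb (SD, n = 3), followed by Tsc22d3 at 22.1 ± 2.702, Nr3c1 at 19.0 ± 2.16, Mt1 at 12.5 ± 17.2, Zbtb16 at 7.33 ± 1.23, Sgk1 at 6.26 ± 1.60, Fkbp5 at 3.47 ± 0.929 and Mt2 at 1.93 ± 2.09. The place of Mt1 rests on mouse E, since it was at 2.26 CPM per kb in mouse B and 2.81 in mouse D, under Fkbp5 in the same mice at 2.60 and 3.36, and at 32.3 in mouse E. The order in WT brain differed. There the metallothioneins led, with Mt1 at 38.3 ± 7.68 CPM per kb (SD, n = 3) and Mt2 at 17.7 ± 3.88, followed by Nr3c1 at 14.7 ± 1.82, Tsc22d3 at 7.18 ± 1.41, Sgk1 at 5.22 ± 0.456, Zbtb16 at 4.88 ± 1.33 and Fkbp5 at 1.43 ± 0.128, with Tat at 0.127. The exon lengths are unions over all transcripts, which places a gene with rarely used exons too low on this scale. Mt1, for example, is annotated with 1246 bases of exon and Mt2 with 588.

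**Figure D1:**
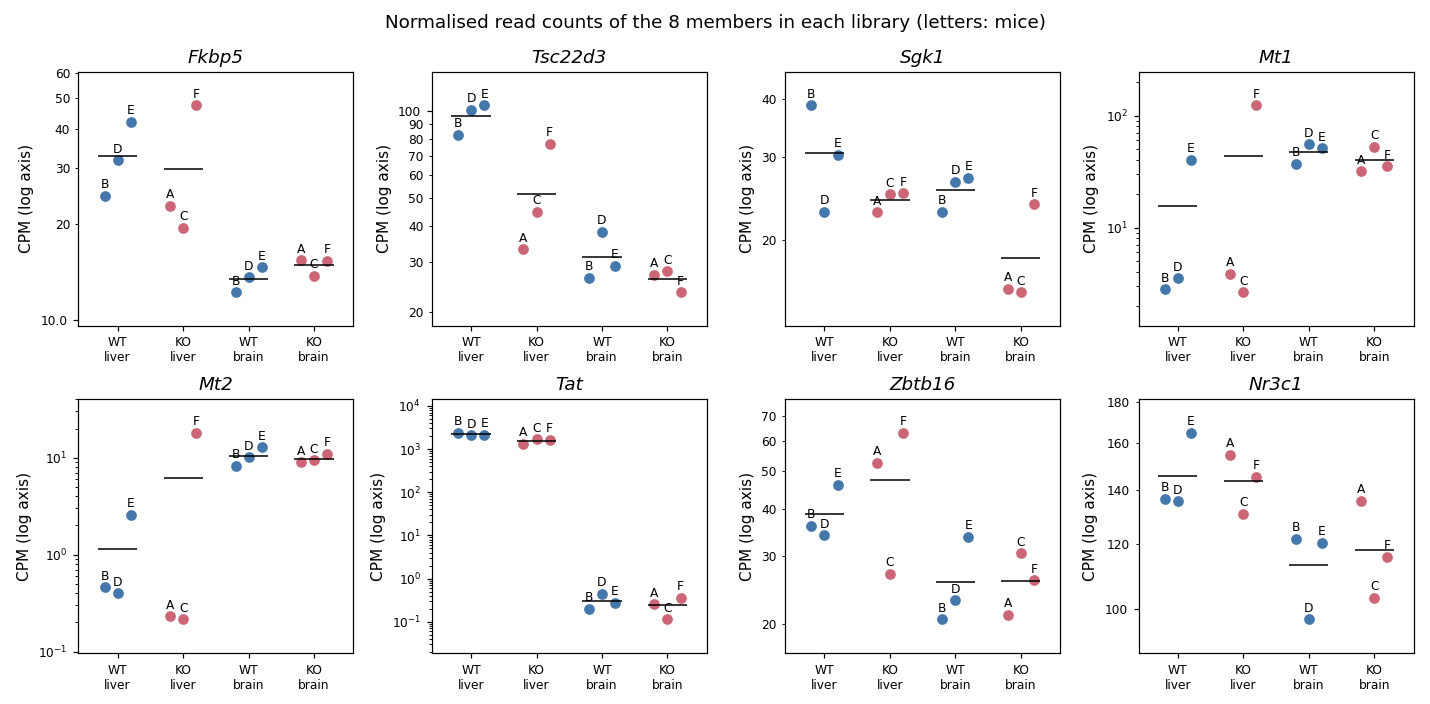
CPM of the 8 members in each of the 12 libraries (log axes), by group, with the mouse letter above each point, WT in blue, KO in red and the group mean as a line. In liver the Mt1 and Mt2 points of mice E and F lie far above those of the 4 other mice, in Tsc22d3 and Tat the KO liver points lie below the WT liver points, and in brain the libraries of each member other than Tat, which has 2 to 11 counts each, lie close together.

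The metallothioneins held the widest spread of any member, and a liver with a high level was found in each genotype. In liver, Mt1 was at 2.81 CPM in mouse B, 3.51 in mouse D and 40.3 in mouse E of the WT group, and at 3.86 CPM in mouse A, 2.64 in mouse C and 123 in mouse F of the KO group. Mt2 was at 0.458 CPM in mouse B, 0.399 in mouse D and 2.56 in mouse E, and at 0.232 CPM in mouse A, 0.214 in mouse C and 18.1 in mouse F. Both genes were thus high in the same mouse of each genotype, and the groups overlapped. Mouse F exceeded mouse E 3.06-fold for Mt1 and 7.08-fold for Mt2, and genotype and individual animal cannot be told apart in these livers. In mouse E, Mt1 was 12.9 times its pooled level in mice B and D (95% exact counting interval 10.3 to 16.3) and Mt2 was 5.93 times that level (3.01 to 12.5). In mouse F, Mt1 was 38.1 times its pooled level in mice A and C (30.7 to 47.8), and Mt2 was 81.3 times that level (36.9 to 223), the latter against only 6 counts. These intervals cover counting error only. Of 14075 genes tested in liver, 11, Mt1 included, had a lower value of E and F at least as far above the highest of the 4 other mice as Mt1, whose gap was 10.4-fold.

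The brains of the same mice did not share this pattern for Mt1. Its brain level was 37.0 CPM in mouse B, 55.4 in mouse D and 50.9 in mouse E, and 31.7 CPM in mouse A, 52.7 in mouse C and 35.1 in mouse F. Mice E and F lay inside the range of the others. Mt2 in brain was at 8.29 CPM in mouse B, 10.1 in mouse D and 12.8 in mouse E, and at 8.93 CPM in mouse A, 9.42 in mouse C and 11.0 in mouse F. Mice E and F were the highest here too, by a much smaller step than in liver, at 1.39 times the mean of B and D and 1.20 times the mean of A and C. Mt1 counts exceeded Mt2 counts in every library. The ratio of Mt1 to Mt2 counts was between 6.14 and 16.7 in the livers and between 3.18 and 5.59 in the brains, without overlap, although 4 of the liver ratios rest on 3 to 7 Mt2 counts. Among the livers with more Mt2 counts, the ratio was 15.8 in mouse E (36 Mt2 counts) and 6.80 in mouse F (270 Mt2 counts).

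Fkbp5 was the remaining member for which the livers of mice E and F both lay above the 4 others. Its liver level was 24.6 CPM in mouse B, 31.8 in mouse D and 42.1 in mouse E, and 22.9 CPM in mouse A, 19.5 in mouse C and 47.4 in mouse F. Mouse E was thus at 1.49 times the mean of mice B and D, and mouse F at 2.23 times the mean of mice A and C. Zbtb16 in liver was at 35.998 CPM in mouse B, 34.0 in mouse D and 46.1 in mouse E, and at 52.6 CPM in mouse A, 27.0 in mouse C and 63.1 in mouse F. The high value of mouse A keeps mice E and F from standing apart for this gene. Among the 7 members tested in liver, 2 (Fkbp5 and Mt1) had both E and F above the others, where 14.0% of all genes tested did, and 0 had both below, where 15.3% of all genes did. In brain, 1 of the 7 members tested, Mt2, had both above, where 3.86% of all genes tested did, and 0 had both below, where 4.44% of all genes did.

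**Figure D2:**
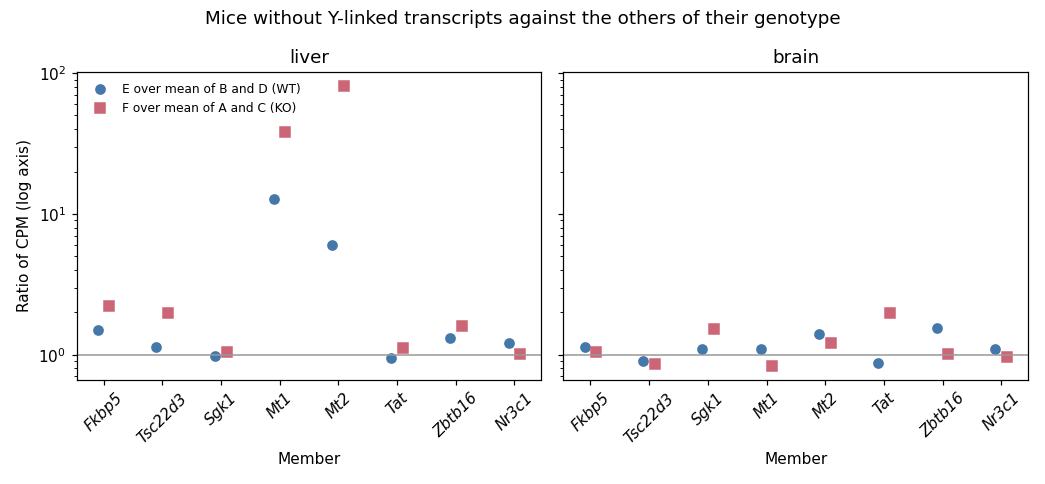
Ratio of the CPM of mouse E to the mean of mice B and D (WT, blue circles) and of mouse F to the mean of mice A and C (KO, red squares) for each member in liver (left) and brain (right), on a log axis with a line at equal levels. In liver Mt1 and Mt2 stand above all other members in both genotypes, while in brain every ratio lies between 0.833 for Mt1 and 1.97 for Tat, which has 2 to 11 counts per brain library.

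Each tissue was also fitted with a term for libraries without Y-linked transcripts, those of mice E and F, beside genotype. The fit was part of the design, and the size of its term was read after the metallothionein values had been seen. In liver it was 4.52 (SE 0.36) on the log2 scale for Mt1, with an adjusted p of 0.00316, and 0.88 (SE 0.16) for Fkbp5 (edgeR adjusted p 0.0131, Benjamini-Hochberg). These were the 2 called of 7 members tested, where 10.4% of all genes tested were called. Tsc22d3 had a term of 0.60 (SE 0.20, adjusted p 0.138 in edgeR), Zbtb16 0.54 (SE 0.24, adjusted p 0.252 in edgeR), and Sgk1, Tat and Nr3c1 lay between 0.02 and 0.15. In brain no member was called, where 0.0233% of genes were. Each genotype held 1 such mouse, so what sets these mice apart and the individual animal cannot be told apart. In both livers of these mice, 14.0% of all genes tested lay above the 4 others and 15.3% below. Of 9 hepatocyte markers, 4 lay below and 0 above. The summed level of all 9 was 87728 CPM in E and 106088 in F, against 112943 to 123430. Of 8 genes listed as markers of brain endothelium, 3 were higher and 1 lower in both. The 3 higher were Slco1a4, at 195 to 215 CPM against 32.5 to 57.9, Pecam1, at 31.9 to 36.6 against 27.3 to 29.4, and Tek, at 29.8 to 33.3 against 22.5 to 25.3. Slc2a1 was the lower one, and Ly6c1 was at the floor there. Slco1a4, the most abundant of the list, is an organic anion transporter that hepatocytes also express and thus no endothelial marker in liver. Of 5 blood markers 1, Alas2, was lower in both, at 19.2 to 25.3 CPM against 97.0 to 132, and the other 4 did not separate these mice. No marker of Kupffer cells and leukocytes separated these mice, of 8 measured. The part of these differences in the metallothionein result was not tested.

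In the liver, KO was set against WT to find transcripts that depend on the Mettl5 genotype. Tsc22d3 and Tat were the members in which all 3 KO livers lay below all 3 WT livers. Tsc22d3 was at 82.5 CPM in mouse B, 101 in mouse D and 104 in mouse E, and at 33.1 CPM in mouse A, 44.6 in mouse C and 76.9 in mouse F. Within the KO group mouse F was close to the WT range and mice A and C were well under it. The log2 fold change of Tsc22d3 was -0.93 (SE 0.29), and edgeR gave an unadjusted p of 0.0142 and a Benjamini-Hochberg adjusted p of 0.501. Tat was at 2392 CPM in mouse B, 2068 in mouse D and 2112 in mouse E, and at 1307 CPM in mouse A, 1679 in mouse C and 1663 in mouse F. Its log2 fold change was -0.53 (SE 0.16), and edgeR gave an unadjusted p of 0.00813 and a Benjamini-Hochberg adjusted p of 0.471. Libraries without overlap fix the two-sided exact permutation p at 0.1, the smallest that 3 against 3 allow, so that test adds nothing here. Markers of Kupffer cells and leukocytes, cells in which Tsc22d3 is also known to be expressed, had negative log2 fold changes in 8 of 8 genes, with a median of -0.45 and none called, and their summed level was 237 to 477 CPM in KO and 338 to 541 CPM in WT. Their part in the Tsc22d3 value was not tested, and in bulk RNA fewer cells of a type and less RNA per cell cannot be told apart. The summed level of the hepatocyte markers overlapped, at 106088 to 123430 CPM in KO and 87728 to 119363 CPM in WT. Of these 9 markers 6 had positive and 3 negative log2 fold changes, with a median of 0.22. Ahsg and Apoa1, 2 of the 9, were higher in every KO than in every WT liver, where 8.03% of all genes were. The part of these markers in the Tat value was not tested. The share of counts from mitochondrial rRNA also separated the genotypes, at 7.36 to 8.66% in KO and 10.7 to 16.9% in WT liver. With mitochondrial rRNA left out of the table, the log2 fold change was -0.92 for Tsc22d3 and -0.53 for Tat (edgeR adjusted p 0.507 and 0.459).

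No member passed the threshold in liver, where edgeR called 0 of 14075 genes tested (0.0%) at an adjusted p under 0.1, 1032 had an unadjusted p under 0.05 and DESeq2 called 171. An unadjusted p under 0.05 was reached by 2 of the 7 members tested, where 7.33% of all genes reached it. Libraries that did not overlap, with KO lower, were found in 2 of 7 members and in 5.18% of all genes, and with KO higher in 0 of 7 members and in 8.03% of all genes. The call on Tsc22d3 depended on the test, with an adjusted p of 0.0767 in DESeq2, 2.04e-05 in edgeR with no filter on low counts and 0.0777 in edgeR without mice E and F, where the log2 fold change was -1.25. Over all 13 alternatives its log2 fold change ran from -1.33 to -0.69 and its adjusted p from 2.04e-05 to 0.985. For Tat the log2 fold change ran from -0.59 to -0.42 and the adjusted p from 0.0725, with no filter on low counts, to 0.985, with 0.105 in DESeq2.

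The other members did not separate the genotypes in liver. Sgk1 was at 38.7 CPM in mouse B, 23.0 in mouse D and 30.4 in mouse E, and at 22.9 CPM in mouse A, 25.0 in mouse C and 25.1 in mouse F. Its log2 fold change was -0.36 (SE 0.18, adjusted p 0.738 in edgeR), and the KO libraries lay inside or at the edge of the wide WT range. Fkbp5 was at 32.8 ± 8.79 CPM (SD, n = 3) for WT and 29.9 ± 15.2 CPM (SD, n = 3) for KO, with a log2 fold change of -0.16 (SE 0.37, adjusted p 0.968 in edgeR). Zbtb16 was at 38.7 ± 6.50 CPM (SD, n = 3) for WT and 47.6 ± 18.6 CPM (SD, n = 3) for KO, with a log2 fold change of 0.27 (SE 0.30, adjusted p 0.907 in edgeR). Nr3c1, the receptor, was at 137 CPM in mouse B, 136 in mouse D and 165 in mouse E, and at 155 CPM in mouse A, 131 in mouse C and 145 in mouse F. Its log2 fold change was -0.05 (SE 0.14, adjusted p 0.975 in edgeR).

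Mt1 had the widest uncertainty of the members that passed the filter in this comparison. Its log2 fold change was 1.44 (SE 2.03, adjusted p 0.941 in edgeR), and it became 3.75 without mouse E, -2.28 without mouse F and 0.02 without both. DESeq2 gave no p-value for it. With the term for mice E and F in the fit the log2 fold change was 0.80 (edgeR adjusted p 0.483). Mt2 did not pass the filter on low counts in liver, and no fit that did hold it called it. With no filter its log2 fold change was 2.43 (SE 2.11, adjusted p 0.780 in edgeR).

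**Figure D3:**
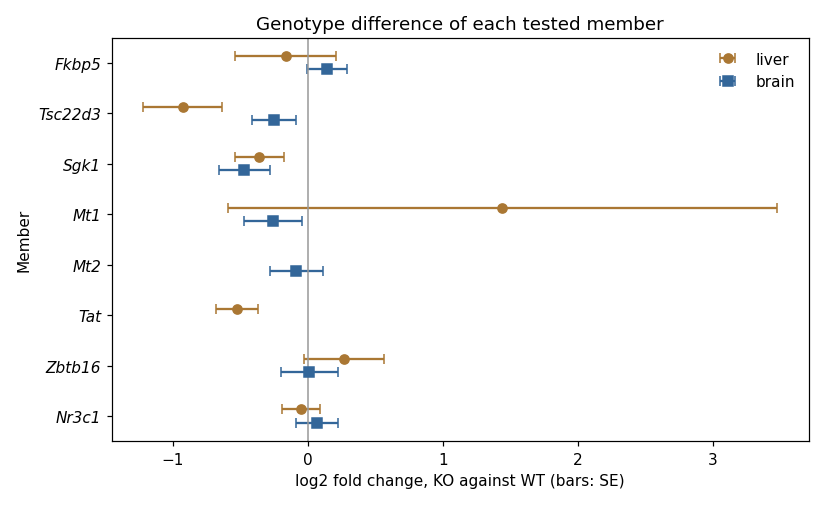
Log2 fold change of KO against WT for each member tested, in liver (brown circles) and brain (blue squares), with bars of 1 SE and a line at no difference. Tsc22d3 and Tat lie below 0 in liver, Sgk1 lies below 0 in both tissues, and the bar of Mt1 in liver spans several log2 units.

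In brain the same question gave Sgk1 as the member with the smallest p-value. Sgk1 was at 23.0 CPM in mouse B, 26.6 in mouse D and 27.1 in mouse E, and at 15.7 CPM in mouse A, 15.5 in mouse C and 23.8 in mouse F. The KO brain of mouse F lay inside the WT range, and mice A and C lay below it. The log2 fold change was -0.47 (SE 0.19), and edgeR gave an unadjusted p of 0.0321 and a Benjamini-Hochberg adjusted p of 0.415. Over 13 alternatives it ran from -0.71, without mouse F, to -0.36, without mouse C, and its adjusted p from 0.139 to 0.943. It was therefore below 0 in all of them and called in none. Tsc22d3, at 31.2 ± 6.11 CPM (SD, n = 3) for WT and 26.1 ± 2.27 CPM (SD, n = 3) for KO, had a log2 fold change of -0.25 (SE 0.17, adjusted p 0.571 in edgeR).

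None of the other members had an unadjusted p under 0.05 in brain. Mt1 had a log2 fold change of -0.26 (SE 0.22, adjusted p 0.647 in edgeR) and Mt2 of -0.08 (SE 0.20, adjusted p 0.877 in edgeR). Fkbp5 was at 13.5 ± 1.21 CPM (SD, n = 3) for WT and 14.9 ± 0.933 CPM (SD, n = 3) for KO, with a log2 fold change of 0.14 (SE 0.15, adjusted p 0.702 in edgeR). Zbtb16 stood at 0.01 (SE 0.21, adjusted p 0.988 in edgeR) and Nr3c1 at 0.07 (SE 0.16, adjusted p 0.876 in edgeR) on the same log2 scale. Tat had 2 to 11 counts per brain library and did not pass the filter on low counts.

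No member of the 7 tested was called in brain, where 11 of 17188 genes (0.064%) were (edgeR). An unadjusted p under 0.05 was reached by 1 of 7 members and by 11.0% of all genes. Libraries that did not overlap were found in 0 of 7 members in either direction, against 7.95% of all genes with KO lower and 8.42% with KO higher. Markers of brain regions moved with genotype in the same libraries. The 10 cerebellar markers were all lower in every KO brain than in every WT brain, with a summed level of 93.1 to 432 CPM in KO and 675 to 1074 CPM in WT. The 10 choroid plexus markers all had negative log2 fold changes, 6 of them without overlap (277 to 340 CPM in KO and 453 to 655 CPM in WT), and 5 of 10 olfactory bulb markers were called higher in KO, Omp by 3.70 (SE 0.32) on the log2 scale (edgeR adjusted p 0.00674). Of 10 astrocyte markers 9 had negative log2 fold changes, with a summed level of 2715 to 3682 CPM in KO and 2863 to 3740 CPM in WT. Their part in the brain values of Sgk1, Tsc22d3 and the metallothioneins was not tested. Mitochondrial rRNA took 21.4 to 31.6% of counts in KO brain and 7.63 to 17.7% in WT brain, without overlap and in the direction opposite to liver. With it left out of the table, the log2 fold change of Sgk1 was -0.47 (edgeR adjusted p 0.427).

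Whether the genotype difference itself differed between tissues was tested over all 12 libraries, with the brain log2 fold change subtracted from that of liver. None of the 8 members was called, where 0 of 18944 genes (0.0%) were called and DESeq2 called 369, and none had an unadjusted p under 0.05, where 2004 genes (10.6%) had. Tsc22d3 had the smallest p among the members, with a difference of -0.64 (SE 0.35) on the log2 scale, an unadjusted p of 0.0918 and an adjusted p of 0.549 (edgeR). The separation of genotypes seen for Tsc22d3 in liver was therefore not shown to be particular to liver, and for Tat, with 2 to 11 counts per brain library, the brain could not be compared. With mouse as a replicate block, since liver and brain of the same letter come from the same animal, 68 genes were called in place of 0, and still no member (Tsc22d3 at -0.74, edgeR adjusted p 0.599).

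The comparison of liver with brain within a genotype gives where each member was more abundant. Tat showed the steepest difference. It was at 2191 ± 176 CPM (SD, n = 3) in WT liver and 0.306 ± 0.120 CPM (SD, n = 3) in WT brain, a log2 fold change of 12.75 (SE 0.35), and of 12.58 (SE 0.36) in KO. With at most 11 counts per brain library, Tat was not a gene shared by both tissues. It passed the filter of this fit through liver, so its call was fixed beforehand and the size of its fold is poorly known. Tsc22d3 was higher in liver by 1.62 (SE 0.25) in WT and by 0.98 (SE 0.25) in KO, with adjusted p of 4.88e-05 and 0.00277 (edgeR). Fkbp5 was higher in liver by 1.28 (SE 0.29) in WT and 1.01 (SE 0.29) in KO, with adjusted p of 0.00101 and 0.00525 (edgeR). Tsc22d3 and Fkbp5 were called in both genotypes under every alternative run.

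Zbtb16, Nr3c1 and Sgk1 had smaller log2 fold changes between the tissues than Tsc22d3 and Fkbp5, and their calls depended on the setting. Zbtb16 in KO, at 0.88, came close to Tsc22d3 at 0.98 and Fkbp5 at 1.01. Zbtb16 was called higher in liver in both genotypes, by 0.59 (SE 0.28) in WT and 0.88 (SE 0.28) in KO (edgeR adjusted p 0.0698 and 0.0108). Nr3c1 was called in WT, at 113 ± 14.0 CPM (SD, n = 3) in brain and 146 ± 16.6 CPM (SD, n = 3) in liver, by 0.37 (SE 0.15, adjusted p 0.0433 in edgeR), and not in KO, by 0.28 (SE 0.15, adjusted p 0.109 in edgeR). Sgk1 was called in KO, by 0.41 (SE 0.21, adjusted p 0.0876 in edgeR), and not in WT, by 0.26 (SE 0.20, adjusted p 0.257 in edgeR). The WT calls on Zbtb16 and Nr3c1 and the KO call on Sgk1 were lost with RLE size factors, which moved the median of all genes by -0.09 in WT and -0.11 in KO on the log2 scale. Single libraries mattered as well. The WT call on Zbtb16 was lost without mouse B (edgeR adjusted p 0.236) or mouse D (0.165) and its KO call without mouse A (0.106) or mouse F (0.113), the call on Nr3c1 without mouse D (0.149) or mouse E (0.148), and the KO call on Sgk1 without mouse A (0.251), mouse C (0.350) or mouse E (0.112), while Sgk1 was called in WT without mouse D (0.0987) and had a log2 fold change of -0.01 without mouse B.

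The metallothioneins had the higher mean in brain in WT, opposite to the other members, while in KO only Mt2 did. Their calls rested on which mice were counted and, for Mt2 in WT, on the filter. In WT, Mt2 was lower in liver than in brain by a log2 fold change of -3.18 (SE 1.37, adjusted p 0.0597 in edgeR) without overlap of the libraries, and Mt1 by -1.62 (SE 1.46, adjusted p 0.342 in edgeR). Mt2 did not pass the filter within liver, with 3 to 7 counts in mice A, B, C and D, and entered these fits through brain. Its calls between tissues are therefore no support for a difference. In KO the values were -0.65 (SE 1.18, adjusted p 0.632 in edgeR) for Mt2 and 0.12 (SE 1.41, adjusted p 0.943 in edgeR) for Mt1. The WT call on Mt2 was lost without mouse B (edgeR adjusted p 0.199) or mouse D (0.220), which leave mouse E beside only 1 other, and also with no filter on low counts (0.112). In KO without mouse F, Mt1 stood at -3.70 (edgeR adjusted p 0.0351). Without mice E and F, Mt1 was called lower in liver by -3.87 in WT and -3.69 in KO (edgeR adjusted p 6.42e-06 and 8.74e-06). Mt2 was called lower too in both genotypes, but its fitted folds rest on liver libraries at or near the floor of 3 counts, and it passed the filter through brain. Its pooled brain level over its pooled liver level was 21.6 in mice B and D (95% exact counting interval 12.2 to 42.1, with 12 liver counts) and 41.3 in mice A and C (18.7 to 113, with 6 liver counts). With mouse as a replicate block, Mt1 was at -2.59 in WT (edgeR adjusted p 0.0976) and -1.91 in KO (0.258), and Mt2 was at -3.43 in WT (0.0202) and -2.39 in KO (0.0989). The block thus added the call on Mt1 in WT and, with the limit of Mt2 given above, on Mt2 in KO.

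In all, 6 of 8 members were called between the tissues in WT and 5 of 8 in KO, where 78.4% of all genes tested were called in WT and 80.0% in KO. These shares lie near those of all genes and are no result about the members.

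**Figure D4:**
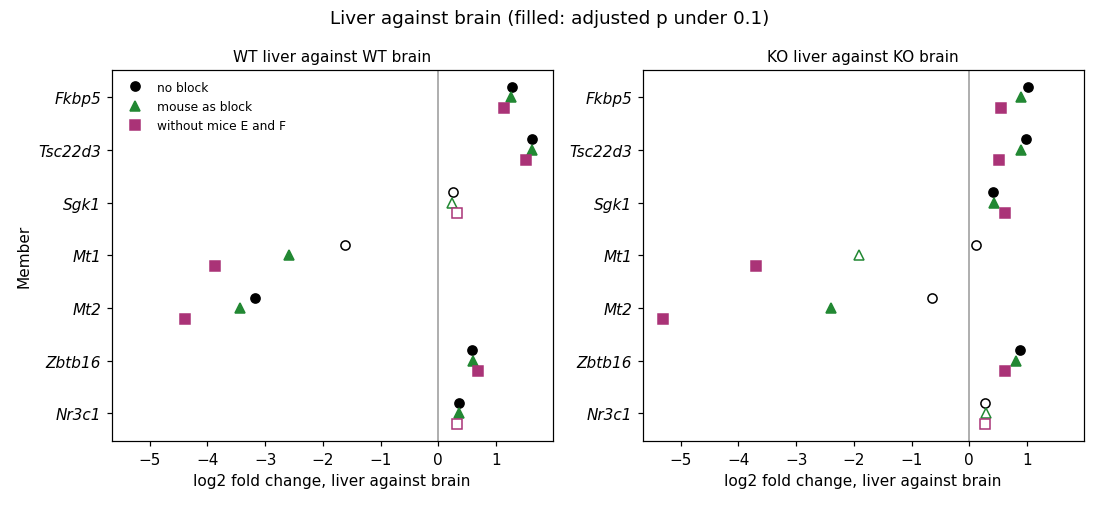
Log2 fold change of liver against brain in WT (left) and KO (right) for 7 members, without a block (black circles), with mouse as block (green triangles) and without mice E and F (purple squares), filled where the adjusted p was under 0.1. Tat, at 12.75 and 12.58, is left off the axis, and the Mt1 and Mt2 points move furthest between the settings, where the Mt2 points without mice E and F rest on 3 to 7 counts per liver library.

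Other genes of the hormone's pathway were followed in fixed lists, none of whose genes was called between genotypes in either tissue (edgeR). Of 25 other genes that the receptor is known to induce, 22 were tested in liver, with 8 higher and 14 lower in KO and a median log2 fold change of -0.23, beside -0.00 over all genes. An unadjusted p under 0.05 was reached by 2 of these 22, where 7.33% of all genes reached it. They were Plin4, a lipid droplet coat protein, at -1.17 (SE 0.29, adjusted p 0.428 in edgeR), and Ddit4, a stress-induced inhibitor of the growth kinase mTOR, at -1.22 (SE 0.37, adjusted p 0.476 in edgeR). In brain 24 were tested, with 5 higher and 19 lower and a median of -0.19, beside -0.00 over all genes, and 3 of the lower ones had an unadjusted p under 0.05, where 11.0% of all genes had. Pnpla2, the lipase that starts the breakdown of stored fat, was at -0.83 (SE 0.26, adjusted p 0.367 in edgeR) and Dusp1, a phosphatase that turns off MAP kinases, at -0.46 (SE 0.15, adjusted p 0.377 in edgeR). The cerebellar, choroid plexus and astrocyte markers given above lay lower in the same KO brains, in 10 of 10, 10 of 10 and 9 of 10 genes by sign, and their part in the brain values of this and the following lists was not tested.

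Genes of amino acid breakdown and glucose production, the liver programme to which Tat belongs, had no common direction in liver. All 13 were tested there, with 7 higher and 6 lower and a median of 0.02 on the log2 scale. An unadjusted p under 0.05 was reached by 7.33% of all genes and by 1 of the 13, which was no enzyme. This was Igfbp1, a secreted binder of insulin-like growth factors that rises with fasting, at 82.0 ± 15.3 CPM (SD, n = 3) for WT and 252 ± 149 CPM (SD, n = 3) for KO, a log2 fold change of 1.59 (SE 0.46, adjusted p 0.497 in edgeR). Fbp1, an enzyme of glucose production, was at -0.25 (SE 0.14, adjusted p 0.782 in edgeR). In brain 6 passed the filter, 1 higher and 5 lower with a median of -0.29 and 1 at an unadjusted p under 0.05, where 11.0% of all genes were. The smallest p-values were those of Fah at -0.49 (SE 0.20, adjusted p 0.420 in edgeR) and Got1 at -0.31 (SE 0.17, adjusted p 0.524 in edgeR).

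Zinc handling genes and the other metallothioneins were compared too, since free zinc is known to act on metallothionein genes. In liver 10 of 13 were tested, with 4 higher and 6 lower and a median of -0.11. No gene of this list had an unadjusted p under 0.05 in liver, where 7.33% of all genes had, and 1 had in brain, where 11.0% of all genes had. The zinc transporters Slc30a4, at 0.27 (SE 0.16, adjusted p 0.793 in edgeR), and Slc39a4, at 0.29 (SE 0.19, adjusted p 0.809 in edgeR), came nearest in liver. In brain 11 were tested, with 5 higher and 6 lower and a median of -0.00, and Slc30a4 was at 0.44 (SE 0.17, adjusted p 0.411 in edgeR) and Slc30a10 at 0.38 (SE 0.18, adjusted p 0.464 in edgeR).

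Among 16 genes for handling the hormone and for the pituitary axis, 8 were tested in liver, with 3 higher, 5 lower and a median of -0.06. Of these, 0 had an unadjusted p under 0.05, where 7.33% of all genes had. H6pd, which supplies the cofactor of the enzyme that regenerates active hormone, was at 0.44 (SE 0.26, adjusted p 0.788 in edgeR), and Abcb1a, an efflux pump that carries steroids among other compounds, at -0.93 (SE 1.01, adjusted p 0.909 in edgeR). In brain 12 were tested, 6 higher and 6 lower with a median of 0.05, and 4 had an unadjusted p under 0.05, where 11.0% of all genes had. Hsd11b1, the enzyme that regenerates active hormone, was at 15.9 ± 3.27 CPM (SD, n = 3) for WT and 9.87 ± 2.37 CPM (SD, n = 3) for KO, a log2 fold change of -0.68 (SE 0.22, adjusted p 0.373 in edgeR), and H6pd was at -0.56 (SE 0.19, adjusted p 0.392 in edgeR).

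All 20 chaperones and coregulators of the receptor were tested in both tissues. In liver 10 were higher and 10 lower, with a median of -0.03, 3 had an unadjusted p under 0.05, where 7.33% of all genes had, and 7 lay higher and 2 lower in KO without overlap of the libraries, where 8.03% and 5.18% of all genes did. Hsp90aa1, an inducible form of the chaperone that holds the receptor, was at 252 ± 88.2 CPM (SD, n = 3) for WT and 103 ± 22.2 CPM (SD, n = 3) for KO, a log2 fold change of -1.32 (SE 0.26, adjusted p 0.383 in edgeR). In brain 7 were higher and 13 lower, with a median of -0.08 and 3 at an unadjusted p under 0.05, where 11.0% of all genes were. Fkbp4, the chaperone partner that competes with the product of Fkbp5 for the receptor complex, was at -0.47 (SE 0.16, adjusted p 0.383 in edgeR), and Hsp90aa1 was at 0.40 (SE 0.17, adjusted p 0.432 in edgeR).

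Whether a mouse with a high liver level of a member also had a high brain level was examined over the 6 mice. For Mt1, Mt2 and Fkbp5 the livers of mice E and F formed a cluster of their own, so no pooled correlation is given. Nr3c1 had the highest Pearson correlation of the other 5, r = 0.671 (exact permutation p 0.139) and Spearman rho = 0.657 (exact permutation p 0.175), and r = 0.513 without mice A and E, the 2 farthest from the median. Pearson's r was 0.352 for Tsc22d3, 0.335 for Sgk1, 0.0982 for Tat and -0.111 for Zbtb16, with exact permutation p of 0.522, 0.597, 0.833 and 0.825 and Spearman rho of 0.486, 0.314, -0.0857 and -0.0857 (exact permutation p 0.356, 0.564, 0.919 and 0.919). Without the 2 mice farthest from the median these r values were 0.783, -0.0978, 0.466 and 0.254. The livers separated the genotypes for Tsc22d3 and Tat, so their r values mix genotype with mouse, and Tat had 2 to 11 counts per brain library. Over the 8 relations computed, every Benjamini-Hochberg adjusted p was at least 0.711, so no relation between the tissues was detectable with 6 mice.

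Across the 12 libraries, with each gene centred within its tissue, the genes most like each member were sought among the other genes tested in both tissues, 12574 for Mt2 and Tat and 12573 for the rest. The closest to Mt1 was Cables1 (Pearson r 0.980), and the closest to Mt2 were Armcx4 (0.966) and Mt1 itself (0.961). Fkbp5 lay closest to Usp18 (0.959) and Tent5a (0.939), Tsc22d3 to Racgap1 (0.945) and Cmbl (0.940), and Tat to Kcnk5 (0.913) and Spata24 (0.856). For Sgk1 these were Siah2 (0.892) and Nup205 (0.890), for Zbtb16 Fam180a (0.919) and Arhgap33 (0.910), and for Nr3c1 Gm44270 (0.917) and Uhrf1bp1l (0.914). The points share mice and library depth, and the high values of Mt1 and Mt2 rest on the livers of mice E and F.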

How the data were processed

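The members and gene lists were chosen with earlier results of these data known, and the same holds for the alternatives. The authors made stranded total RNA libraries, sequenced single-end reads, trimmed them with Trimmomatic, aligned them to mm10 with STAR 2.7.3a and counted reads over exons by strand with featureCounts (versions from the submitters' processing notes). The deposited table holds raw counts per gene with no normalisation, and 55141 of its 55487 genes matched a symbol by GENCODE M21. Libraries are named by tissue, genotype and mouse letter.

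Tests on the counts used edgeR 4.0.16 (R 4.3.3, TMM, filterByExpr, robust quasi-likelihood F test, Benjamini-Hochberg over all genes tested, call at an adjusted p under 0.1), within tissue for genotype and over all 12 libraries for the other comparisons. SE was taken from the F statistic. CPM use 12-library TMM factors. Alternatives were RLE size factors, DESeq2 1.42.0, no filter, mitochondrial rRNA left out, each mouse left out, all libraries in 1 fit, a term for libraries without Y-linked transcripts, mouse as replicate block and, added after seeing the data, leaving out mice E and F. Mouse letters pair liver and brain by animal, with correlations of deviations from the group means from -0.0387 to 0.141 over 12574 genes. The test was also run on simulated counts with the same spread for every gene, which does not check it for the spread between these mice. Named genes are the members, Mettl5, in each list and tissue every called gene or else the 2 with the smallest p, and the 2 genes most correlated with each member. Some genes this rule would name are not reported here. Marker genes were chosen from general knowledge. The named hepatocyte, olfactory, endothelial and blood markers were picked after their values were seen. Depth limits low genes, and 3 counts per library was taken as the floor.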

Additional observations from a re-analysis of the deposited data

Results flagged for a closer look

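Every member and every gene of the lists was checked for genotype effects that differ between liver and brain, and 3 of 84 list genes (3.57%) had KO and WT libraries without overlap in opposite directions, as did 268 of all 18944 genes tested (1.41%). Hsp90aa1 ran from 77.4 to 117 CPM in KO and 192 to 353 CPM in WT liver, and from 741 to 1012 CPM in KO and 580 to 701 CPM in WT brain. Its effect in liver minus brain was -1.69 (SE 0.34) on the log2 scale, and missed the threshold at an adjusted p of 0.132 in edgeR. Pnpla2 ran from 67.3 to 73.4 CPM in KO and 57.9 to 58.4 CPM in WT liver, and from 4.97 to 7.38 CPM in KO and 7.58 to 14.2 CPM in WT brain. Its effect in liver minus brain was 1.11 (SE 0.30), and also missed it at an adjusted p of 0.218 in edgeR. Crtc2, a coactivator of glucose production genes, ran from 24.1 to 28.4 CPM in KO and 20.6 to 23.2 CPM in WT liver, and from 6.18 to 8.03 CPM in KO and 8.90 to 11.5 CPM in WT brain. Its effect in liver minus brain was 0.71 (SE 0.23), at an adjusted p of 0.313 in edgeR. No member met this description, and groups of 3 are too small for a test of single outlying libraries.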

How the results depend on the processing

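The members called stayed at 0 in brain and in the difference between tissues under every alternative run. In KO against WT liver, 0 members became 1 with DESeq2 (Tsc22d3), 2 with no filter (Tsc22d3 and Tat) and 1 without mice E and F (Tsc22d3), and stayed at 0 when any 1 mouse was left out. Genes called in liver, 0 in the design as planned, became 171 with DESeq2, 82 with the Y-linked term, 3 with all libraries in 1 fit, 443 with no filter, 29 without mice E and F, and 0 to 87 with 1 mouse left out. In brain 11 became 269 with DESeq2, 1000 with no filter, 0 without mice E and F and 2 to 23 with 1 mouse left out. In the difference between tissues 0 became 369 with DESeq2, 1 with RLE, 183 with no filter, 68 with the replicate block and 0 to 86 with 1 mouse left out. Members called between tissues in WT, 6, became 3 with no filter and 4 to 6 with 1 mouse left out, and in KO 5 became 3 to 6. The replicate block changed no other call than those given beside the results, and no paired analysis was possible between genotypes because no mouse letter is shared by KO and WT and the labels do not give the pairs of KO and control mice that the study mentions.

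Of 470 recomputed fold changes of members, 410 kept direction and side of the threshold, 28 changed direction, 22 lost a call and 10 gained one. Without mice E and F, Nr3c1 in liver was 0.0526, Mt2 in brain 0.0047, the differences between tissues of Mt2, Tat and Zbtb16 were -0.92, 0.27 and -0.0637, and Mt1 in KO liver against brain was -3.69 (with the block -1.91, with DESeq2 -0.0045). Zbtb16 in brain was -0.0018 with DESeq2 and -0.0143 with no filter. With 1 mouse left out, the liver fold changes ran from -0.66 to 0.0682 for Fkbp5, -0.11 to 0.051 for Nr3c1 and -2.28 to 3.75 for Mt1. In brain they ran from -0.13 to 0.26 for Zbtb16, -0.0457 to 0.16 for Nr3c1 and -0.22 to 0.10 for Mt2. In the difference between tissues they ran from -0.56 to 0.21 for Tat, -0.053 to 0.42 for Sgk1, -2.08 to 3.99 for Mt1 and -2.14 to 3.75 for Mt2. Between tissues they ran from -0.014 to 0.46 for Sgk1 in WT and -3.70 to 0.93 for Mt1 in KO. For each of these shifts the cause was not tested. Low depth limits Mt2 in 4 livers and Tat in brain.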
